A study of Mus musculus with 12 samples.

Results

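Nos1, the neuronal nitric oxide synthase, and 6 genes of the dystrophin complex were followed in the white gastrocnemius of mice that carry a mutant AMPK γ3 subunit and of their wild-type littermates. The genes are Nos1, Dmd, Dag1, Sgca, Sgcb, Dtna and Utrn, 7 of the 12393 genes that the platform annotation names on the array. All probe sets paired with exactly 1 of these symbols were taken, which gave 21 of 22626 tested probe sets: 2 for Nos1, 3 for Dmd, 4 for Dag1, 1 for Sgca, 2 for Sgcb, 6 for Dtna and 3 for Utrn. Nos1 was picked because 1 of its probe sets had already been found to differ between the genotypes in these same arrays. Its genotype difference is therefore given as a description and supports nothing, and the other genes were added as its partners in the membrane complex.

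The transgenic group held 6 male C57BL/6 mice carrying the R225Q form of AMPK γ3, and the control group held 6 male wild-type littermates of the same strain. All were 17 to 18 weeks old and had been fasted overnight, so every value below is from fasted muscle. White gastrocnemius is a region of the calf muscle rich in fast fibres, and its total RNA was hybridised to 1 Affymetrix MOE430A array per mouse, and 12 different animal numbers are recorded. Transgenic arrays carry the numbers 1 to 6 and wild-type arrays 7 to 12. The promoter that drives the transgene is not given in the sources used here, and the transcript of the transgene itself was not analysed here, which leaves the genotype labels unchecked at the transcript level. Values are log2 intensities after RMA, in which 1 unit is a doubling of signal. Tests compare 1 probe set between arrays. Words such as brighter or above the median probe set describe signal on the chip, not the amount of one transcript against another. The number of arrays limits the precision. Array medians lay between 6.61 and 6.69.

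Dystrophin is a long cytoskeletal protein that links actin under the muscle membrane to dystroglycan, which spans the membrane and binds laminin outside the fibre. Sarcoglycans brace dystroglycan in the membrane, and dystrobrevins and syntrophins bind the end of dystrophin inside the fibre. The neuronal nitric oxide synthase is held at this site through syntrophin and dystrophin, and the nitric oxide it makes acts on blood vessels and on contraction in working muscle. When dystrophin is missing, as in Duchenne muscular dystrophy, the synthase leaves the membrane, and utrophin, a close relative of dystrophin, can take over part of the scaffold. In bulk tissue a lower level of a transcript can come from fewer cells of a type or from less RNA per cell, and these cannot be told apart.

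The annotated start regions of 3 members are shown to place the synthase beside a scaffold gene and a sarcoglycan gene that muscle fibres also express. The windows are from RefSeq on GRCm38.p6 and run from 250 bases before to 50 bases after the annotated start, on the strand of the gene. Nos1 lies at chr5:117866589-117866888 on the plus strand, Dmd at chrX:82948620-82948919 on the plus strand and Sgca at chr11:94976278-94976577 on the minus strand. Capitals mark the E-box CANNTG, the letters bound by myogenic factors among others, which read the same on both strands.
Nos1: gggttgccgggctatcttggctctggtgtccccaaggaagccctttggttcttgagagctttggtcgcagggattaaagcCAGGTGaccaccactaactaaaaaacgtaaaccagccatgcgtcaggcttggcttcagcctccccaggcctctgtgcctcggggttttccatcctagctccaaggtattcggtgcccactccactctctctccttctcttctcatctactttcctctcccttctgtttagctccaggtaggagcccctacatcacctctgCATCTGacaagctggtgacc
Dmd: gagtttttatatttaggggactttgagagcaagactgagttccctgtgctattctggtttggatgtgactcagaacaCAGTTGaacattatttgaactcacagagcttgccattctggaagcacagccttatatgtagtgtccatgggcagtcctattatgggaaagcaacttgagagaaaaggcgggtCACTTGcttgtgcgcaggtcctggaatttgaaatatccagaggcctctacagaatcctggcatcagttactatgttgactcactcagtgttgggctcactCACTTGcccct
Sgca: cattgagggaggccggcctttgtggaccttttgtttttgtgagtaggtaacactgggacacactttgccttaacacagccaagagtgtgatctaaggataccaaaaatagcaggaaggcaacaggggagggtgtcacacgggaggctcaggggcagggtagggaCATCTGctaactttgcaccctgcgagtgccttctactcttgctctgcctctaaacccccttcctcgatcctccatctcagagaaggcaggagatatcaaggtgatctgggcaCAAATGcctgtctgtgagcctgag
The Nos1 window held 2 such matches, the Dmd window 3 and the Sgca window 2. At least 1 match was found in 72.3% of 32851 windows of this length, so a match sets none of these genes apart. A core of the MEF2 motif, CTA and TAG with 4 free bases between them, was searched on both strands and was in none of the 3 windows and in 3.69% of all windows. Dmd has a second annotated start, with its window at chrX:85048045-85048344 and no E-box in it. Both Dmd windows lie inside the annotated gene, which begins at chrX:82814664. Windows of 6 of the 7 genes were searched, and Dtna was left out of the search. Each Dag1 window held 1 E-box, the Sgcb window 0 and the Utrn window 7, where the median over all windows was 1. The chip's probe sequences were not used here, so the start or exon that each probe set reads was not determined.

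In transgenic muscle the brighter Nos1 probe set (1438483_at) read 9.68 log2 units at the lowest, 9.69 at the median and 9.80 at the highest of 6 arrays. In wild-type muscle the lowest was 9.08, the median 9.19 and the highest 9.57. All 6 transgenic arrays thus lay above all 6 wild-type arrays, and the transgenic arrays lay closer together than the wild-type arrays. The group means were 9.71 ± 0.05 and 9.24 ± 0.17 (SD, n = 6 each). The difference was 0.47 ± 0.07 (SE) on the log2 scale, or 1.39 times the wild-type signal with a 95% interval of 1.25 to 1.54. The limma adjusted p of 0.0211 is the value by which the gene was chosen. It stood 7th from the smallest among all probe sets, and the threshold of 0.05 fell between 2 probe sets of Ugp2, at 0.0409 just inside and 0.0511 just outside. This was the 1 member probe set of 21 past the threshold, where 0.0707% of all 22626 tested probe sets passed, 0.0442% higher and 0.0265% lower in transgenic muscle. It was likewise the 1 member probe set whose genotypes did not overlap, against 0.504% of all, or 0.243% with the transgenic arrays higher. Since Nos1 was picked on this contrast, nothing is read from either count.

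**Figure D1:**
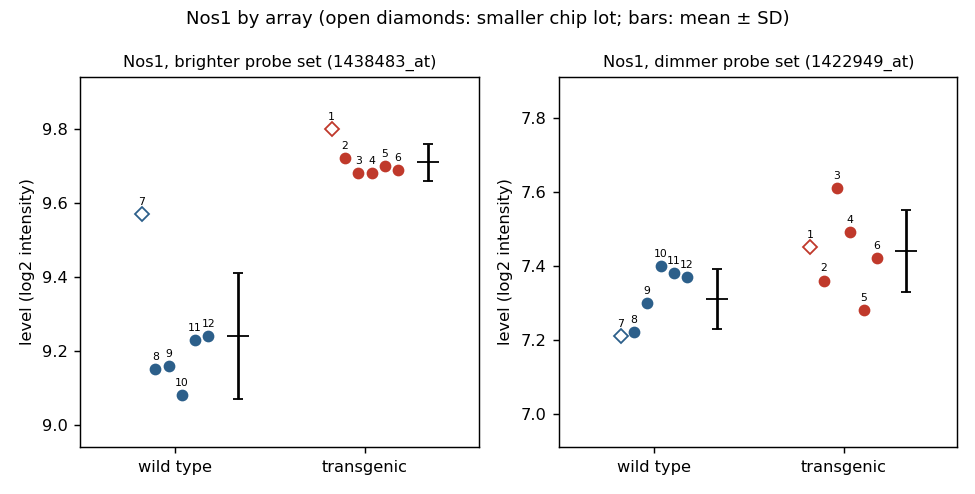
Level of the 2 Nos1 probe sets in each array, in log2 intensity, for 6 wild-type and 6 transgenic mice; small figures are array numbers, bars give mean ± SD and open diamonds are the 2 arrays of the smaller chip lot. In the brighter probe set all transgenic arrays (9.68 to 9.80) lie above all wild-type arrays (9.08 to 9.57), and in the dimmer one the groups overlap.

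Wild-type replicate 7 was the array that narrowed the gap. It read 9.57, while the other 5 wild-type arrays lay between 9.08 and 9.24 with a mean of 9.17 ± 0.07. Without it the difference was 0.54 ± 0.05 (limma adjusted p = 0.000318). Replicate 7 and transgenic replicate 1, which was the highest transgenic array at 9.80, are the 2 arrays of a smaller chip lot. Within the larger lot the transgenic mean was 9.69 ± 0.02 and the wild-type mean 9.17 ± 0.07 (SD, n = 5 each), a difference of 0.52 ± 0.05 (limma adjusted p = 0.000574). Leaving out 1 array at a time kept the difference between 0.44 and 0.54. The limma adjusted p stayed under the threshold in 5 of these 12 fits, among them those without wild-type replicate 7 and without transgenic replicate 1. It missed the threshold in the other 7. Leaving out transgenic replicates 2, 3, 5 or 6 gave limma adjusted p-values of 0.0723, 0.0602, 0.0543 and 0.0532. Leaving out wild-type replicates 8, 9 or 11 gave 0.0651, 0.0684 and 0.0523. All these fits reuse the contrast by which Nos1 was chosen, so their p-values, small or large, are a description and support nothing.

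Hybridization took place on 2 days, each with 3 arrays of each genotype. On day 1 the transgenic arrays read 9.68 to 9.80 and the wild-type arrays 9.15 to 9.57. On day 2 the ranges were 9.68 to 9.70 and 9.08 to 9.24. The difference was 0.44 ± 0.12 on day 1 and 0.50 ± 0.07 on day 2 (SE), and with 3 arrays a group neither passed alone (limma adjusted p = 0.978 and 0.212). The difference of day 2 minus day 1 was 0.06 ± 0.145 (SE) and did not pass (limma adjusted p = 0.999). For that comparison of days limma called 0 of all probe sets, with 3.04% at an unadjusted p under 0.05. With the 4 hybridization runs as a block, which hold the genotypes unequally, the difference was 0.48 ± 0.08 (limma adjusted p = 0.082). With quantile normalization repeated over the 12 arrays it was 0.47 ± 0.09 (limma adjusted p = 0.0869).

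The dimmer Nos1 probe set (1422949_at) gave a smaller difference. Transgenic arrays had a lowest value of 7.28, a median of 7.44 and a highest of 7.61, and wild-type arrays 7.21, 7.34 and 7.40. The groups overlapped, with 5 of 6 transgenic arrays above the wild-type mean. The difference was 0.12 ± 0.06, with a 95% interval from -0.01 to 0.25. The 2 probe sets were not tested against each other, since the brighter one was picked for its difference. On day 1 the dimmer probe set was at 0.23 ± 0.09, and on day 2 at 0.01 ± 0.08. The wild-type arrays of day 1 read 7.21 to 7.30 and those of day 2 read 7.37 to 7.40, so wild-type muscle divided by day here. The test of the day difference gave -0.22 ± 0.116 (SE) and did not pass (limma adjusted p = 0.999).

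Within a single array the brighter probe set exceeded the dimmer by 2.27 ± 0.13 on average in transgenic arrays and by 1.93 ± 0.23 in wild-type arrays, in log2 units (SD, n = 6 each). The lowest of these gaps was 2.07 in transgenic arrays and 1.69 in wild-type arrays, and the highest 2.42 and 2.36. The ranges overlapped. The gap sets arrays side by side and says nothing of which probe set reads more transcript. It uses the same contrast as the choice of Nos1 and was not tested.

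Dmd encodes dystrophin, the rod that the whole complex is built on. Its brightest probe set (1417307_at) read 8.51, 8.60 and 8.72 at the lowest, median and highest of the transgenic arrays and 8.18, 8.65 and 8.70 in wild type. The groups overlapped, and wild-type replicate 7 alone was at 8.18, with the next wild-type array at 8.57. The difference was 0.04 ± 0.08 with a 95% interval of -0.13 to 0.21, and -0.04 without that array. The second probe set (1448665_at) varied widely in both genotypes, from 7.14 to 8.01 and from 7.11 to 7.98, and was at -0.03 ± 0.15. On day 1 it was at 0.28, and day 2 minus day 1 was -0.62 ± 0.28 (SE, unadjusted p = 0.0434, limma adjusted p = 0.999). The third probe set (1430320_at) read 3.48 to 3.68 over all arrays, below the median probe set, and was at 0.02 ± 0.05.

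Utrn encodes utrophin, the dystrophin relative that in adult fibres is found mainly at neuromuscular and myotendinous junctions. Its brightest probe set (1452222_at) ran from 7.09 through a median of 7.24 to 7.41 in transgenic muscle and from 7.03 through 7.18 to 7.36 in wild type. The groups overlapped, with a difference of 0.06 ± 0.07. The second (1427569_a_at) was at 0.14 ± 0.07, the largest positive value among the 19 probe sets of the 6 partner genes, with an interval from -0.01 to 0.30, and the third (1426892_at) at -0.11 ± 0.07. These 2 dimmer probe sets have a mean below the median probe set of the array and had opposite signs.

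Dag1 encodes dystroglycan, cut after synthesis into an outer part that binds laminin and a membrane-spanning part that binds dystrophin. Its brightest probe set (1426778_at) read 10.31, 10.50 and 10.54 in transgenic arrays and 10.32, 10.48 and 10.65 in wild-type arrays. Both groups had a mean of 10.47, and the 95% interval of the difference ran from -0.13 to 0.13. The other 3 Dag1 probe sets, 2 of which may also match related sequences by their design suffix, were at -0.02, 0.02 and 0.06. Over all 4 the highest end of an interval was 0.20.

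Sgca and Sgcb encode α- and β-sarcoglycan, 2 of the membrane proteins whose loss gives limb-girdle muscular dystrophy. The single Sgca probe set (1422654_at) read 10.83, 10.86 and 10.92 in transgenic muscle and 10.85, 10.94 and 11.01 in wild type. All 6 transgenic arrays lay below the wild-type mean of 10.93 ± 0.07, but the groups overlapped and the difference of -0.06 ± 0.05 did not pass (limma adjusted p = 0.999). For the brighter Sgcb probe set (1419668_at) the transgenic values were 8.13, 8.32 and 8.58 and the wild-type values 7.94, 8.40 and 8.62, with a difference of -0.01 ± 0.10. The lowest array of each genotype was that of the smaller chip lot. The dimmer Sgcb probe set was at 0.01 ± 0.09.

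Dtna encodes α-dystrobrevin, which binds dystrophin and syntrophin on the inner face of the membrane. Its brightest probe set (1425292_at) ran from 8.57 through 8.82 to 8.92 in transgenic and from 8.48 through 8.72 to 8.79 in wild-type arrays. The difference was 0.12 ± 0.07, with 5 of 6 transgenic arrays above the wild-type mean and an interval of -0.03 to 0.26. A further probe set (1429768_at), below the median probe set, lay at -0.12 ± 0.06, and the other 4 were between 0.02 and 0.06. The intervals of all 6 Dtna probe sets included 0.

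Across the 19 probe sets of the 6 partner genes limma called 0, and 0 had an unadjusted p under 0.05, where 4.63% of all tested probe sets did. Their differences ran from -0.12 to 0.14, with 13 positive and 6 negative. The median was 0.023, against -0.0024 over all probe sets, of which 48.6% were positive. The limma adjusted p was 0.999 for each of the 19. Over all probe sets the 5th percentile of the difference was -0.125 and the 95th was 0.121. No upper end of a 95% interval in the partner genes was above 0.36, and no lower end was below -0.36, both set by probe sets with wide spread in Dtna and Dmd.

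**Figure D2:**
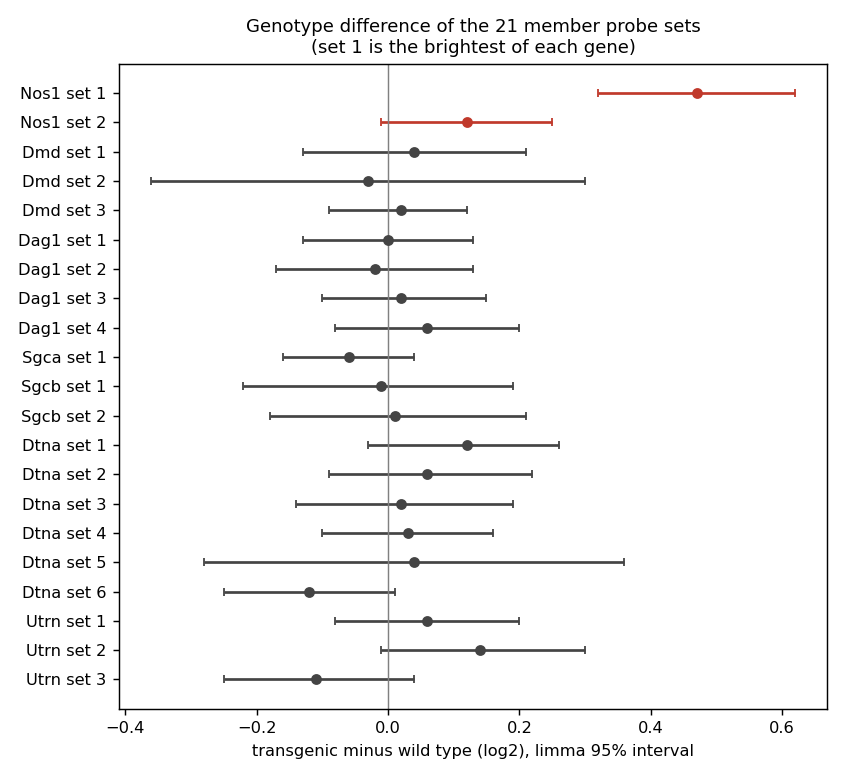
Transgenic minus wild-type difference in log2 units with its 95% limma interval for each of the 21 member probe sets, Nos1 in red; set 1 is the brightest probe set of a gene. The brighter Nos1 probe set is at 0.47, and the 19 probe sets of the other 6 genes lie between -0.12 and 0.14 with intervals that include 0.

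**Figure D3:**
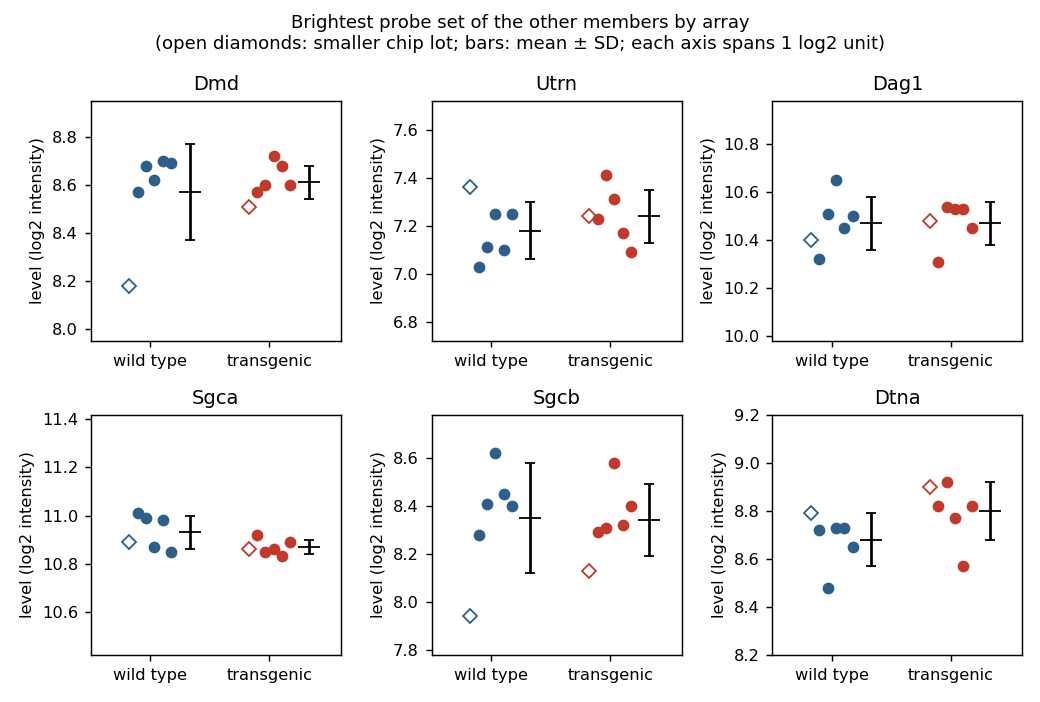
Log2 intensity of the brightest probe set of Dmd, Utrn, Dag1, Sgca, Sgcb and Dtna in each array, with mean ± SD and open diamonds for the smaller chip lot; every axis spans 1 log2 unit. The genotypes overlap in all 6 genes, and wild-type replicate 7 is lowest in Dmd (8.18) and Sgcb (7.94).

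The arrays of the smaller chip lot stood apart over the whole array and in the members. The 2 arrays of the smaller lot were both the lowest of their genotype in 8 of the 21 member probe sets, where the share over all probe sets was 10.4%. They were both the highest in 2, the brighter Nos1 probe set and 1 of Dtna, where the share over all was 15.2%. Wild-type replicate 7 was the lowest of all 12 arrays in 10 of the 21, against 14.4% over all. Probe sets of 1 gene are not independent, and these shares were not tested. Gapdh is read by the chip at both ends of its transcript, and signal shifts to the 3′ end when RNA is degraded. By this measure, 3′ minus 5′ log2 signal, the smaller lot stood at 0.185 and 0.184 while no other array was above -0.0017. The genotypes, each with 1 array of that lot, averaged -0.0108 ± 0.0963 for transgenic and -0.00155 ± 0.0983 for wild-type arrays (SD, n = 6; two-sided exact permutation p = 0.766). Whether lot or RNA quality contributes to the member values was not tested.

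**Figure D4:**
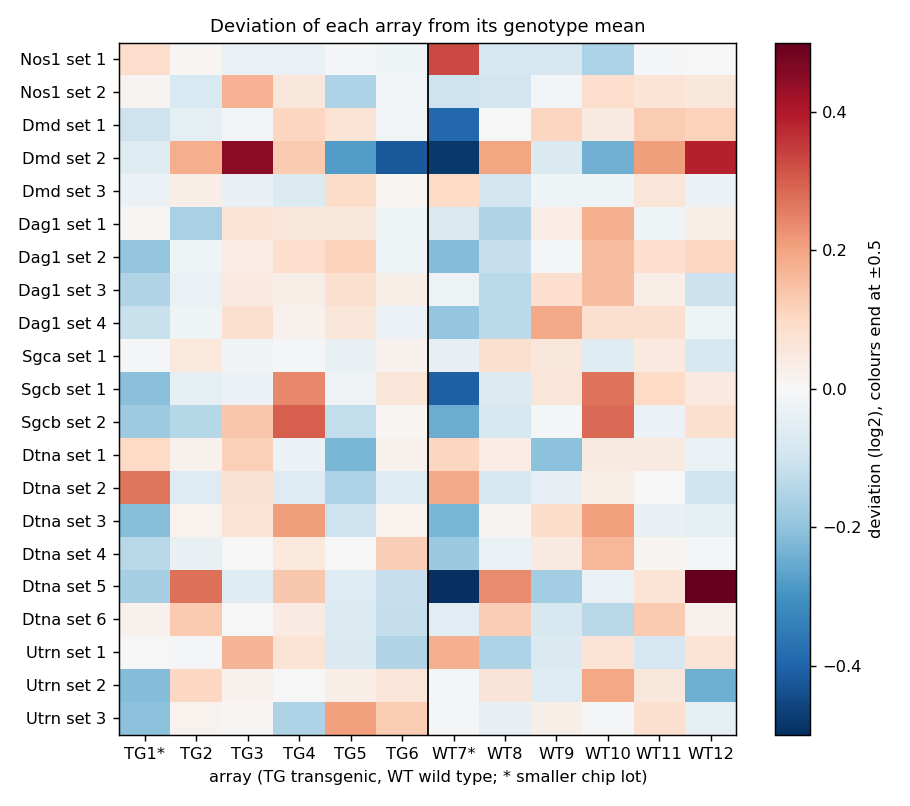
Deviation of each array from the mean of its genotype, in log2 units, for the 21 member probe sets (rows) and 12 arrays (columns); stars mark the smaller chip lot. Wild-type replicate 7 is high in the brighter Nos1 probe set and low in the first Dmd and both Sgcb probe sets.

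Whether Nos1 varied with its partners from animal to animal was examined within each genotype, a relation that the choice of genes did not use. Each genotype gave 6 arrays, and 14 correlations were computed with exact two-sided permutation tests, for 6 partner genes and, added after the data were seen, the other Nos1 probe set in each genotype. None passed after adjustment over the 14. Sgcb, the β-sarcoglycan, had Pearson's r of -0.83 in transgenic arrays (exact p = 0.0486, adjusted 0.259) and -0.89 in wild-type arrays (exact p = 0.0444, adjusted 0.259). Spearman's rho was -0.83 (exact p = 0.0583) and -0.60 (exact p = 0.242). Without the 2 arrays farthest from the median of Nos1, r was -0.79 in transgenic and 0.69 in wild-type arrays (n = 4, exact p = 0.333 in each). In wild type the relation thus rested on those arrays. The 4 transgenic arrays left spanned only 9.68 to 9.70 in Nos1, too narrow to tell whether the relation holds there. Transgenic replicate 1 and wild-type replicate 7, of the smaller chip lot, were the highest in Nos1 and lowest in Sgcb of their genotype. For Dmd r was -0.77 in transgenic arrays (exact p = 0.0556, adjusted 0.259) with rho -0.83 (exact p = 0.0583), and r was -0.86 (exact p = 0.149, adjusted 0.428) with rho 0.03 in wild-type arrays. Without the 2 arrays farthest from the median of Nos1, r with Dmd was -0.20 in transgenic and 0.70 in wild-type arrays. The remaining r lay between -0.54 and 0.64. The 2 Nos1 probe sets themselves were at r = -0.12 in transgenic and -0.54 in wild-type arrays, neither past the test (adjusted p = 0.863 and 0.614). Each day held 3 arrays of a genotype, too few for a value within days.

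The 5 genes most like Nos1 were taken from 7384 named genes above the median probe set by the Pearson r of deviations from the genotype mean over 12 arrays. They were Nicn1 at 0.98, the fatty acid ligase gene Acsl5 at 0.95, Desi1 at 0.95, Pgap2 at 0.94 and Ogfr at 0.93. These are the highest of many values and carry no test. The 12 arrays share chip lots and runs. Within the 10 arrays of the larger lot, a setting added after the data were seen, r was 0.91 for Nicn1, 0.55 for Acsl5, 0.77 for Desi1, 0.61 for Pgap2 and 0.43 for Ogfr. None of the 5 passed for genotype in limma, with differences from -0.07 to 0.03.

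The genes that surround the synthase and the complex were placed in 6 lists of 106 genes, of which 82 were analysed here, each by its brightest probe set. Limma called 0 of the 82, where 0.0888% of all 12393 genes passed. An unadjusted p under 0.05 was found for 8, or 9.76%, against 4.91% of all genes. The 8 were Cav3, Vcl and Slc7a2, with Ank3, Spr, Prmt1, Chrnb1 and Myod1, which were named after their values were seen, and 5 of the 8 differences were negative. The list medians below lay near 0 and moved with the arrays used: in 5 of the 6 lists the sign turned on at least 1 of the days, and without 1 array all 6 medians stayed between -0.0809 and 0.0152.

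Of the other dystrophin complex proteins, 9 of 12 were analysed, with 3 positive and 6 negative values and a median of -0.057, against -0.0013 over all genes. Without wild-type replicate 7 this median was -0.0034, and it was -0.113 on day 1 and 0.0082 on day 2. Of the syntrophin adaptors, Sntb1 was at -0.14 ± 0.11 and Sntb2 at -0.08 ± 0.05. Sgcd, δ-sarcoglycan, was at -0.04, Sgce, ε-sarcoglycan, at 0.03, sarcospan (Sspn) at 0.03 and β-dystrobrevin (Dtnb) at -0.06. Caveolin-3 (Cav3), the muscle caveolin, which binds and inhibits the synthase, had a transgenic mean of 8.47 ± 0.09 and a wild-type mean of 8.60 ± 0.09 (SD, n = 6 each). Its difference of -0.13 ± 0.06 did not pass (limma adjusted p = 0.997) and was -0.04 on day 1 and -0.23 on day 2.

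The enzymes that build the laminin-binding sugar of dystroglycan had 5 positive and 7 negative values among 12 of 18 analysed, with a median of -0.004. Pomt1, a mannosyltransferase that starts the sugar, was at -0.03 and Pomgnt1, which extends it, at 0.07. Laminin, integrin and costamere genes had 8 positive and 11 negative values among 19 of 22, with a median of -0.012 that was 0.0364 on day 1 and -0.0521 on day 2. Lama2, the laminin chain of the muscle basement membrane, was at -0.01, Itga7, the muscle laminin receptor integrin, at 0.01, Des, desmin, at -0.05 and Vcl, vinculin, at 0.21 ± 0.10. Vcl did not pass (limma adjusted p = 0.999).

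Genes of nitric oxide and cyclic GMP were divided evenly, with 11 positive and 11 negative among 22 of 32 and a median of 0.002. The other synthases, endothelial Nos3 and inducible Nos2, were at 0.02 and -0.11. Dynll1, a dynein light chain that binds the synthase, was at 0.00 ± 0.10, and Pfkm, the muscle phosphofructokinase, at 0.05. Slc7a2, a carrier of arginine, the substrate of the synthase, had a transgenic mean of 7.16 ± 0.36 and a wild-type mean of 6.62 ± 0.14 (SD, n = 6 each). These values are from the brightest of its 3 probe sets, and the others are not given here. The difference of 0.54 ± 0.13 did not pass (limma adjusted p = 0.344), and the groups overlapped. Gch1, the first enzyme of the cofactor tetrahydrobiopterin, was at 0.00 and Arg2, an arginase, at 0.02. Of the nitric oxide receptor, guanylate cyclase, Gucy1a1 and Gucy1b1 were each at 0.09, and the kinase downstream, Prkg1, was at -0.09.

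Neuromuscular junction genes had 5 positive and 7 negative values among 12 of 13, with a median of -0.016. The receptor subunit genes Chrna1 and Chrne were at 0.01 and -0.02, the kinase gene Musk at -0.11 and the receptor clustering gene Rapsn at 0.06. Genes that rise in denervated or regenerating muscle had 1 positive and 7 negative values among 8 of 9, with a median of -0.03. Without wild-type replicate 7 this median was -0.0014, and it was -0.0732 on day 1 and 0.0232 on day 2. The fetal receptor subunit gene Chrng was at -0.08, Ncam1 at -0.04 and myogenin (Myog) at -0.02. Myod1, a myogenic factor named after its values were seen, had a transgenic mean of 6.99 ± 0.16 and a wild-type mean of 7.37 ± 0.12 (SD, n = 6 each). It was the 1 gene of the 82 whose genotypes did not overlap, where 0.533% of all genes did not, and its difference of -0.38 ± 0.08 did not pass (limma adjusted p = 0.132).

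The labelled tissue was checked against cell type markers. All 9 fast fibre markers were above the median probe set, with a median difference of 0.001 and summed intensities of 105000 to 111900 in transgenic and 102500 to 109800 in wild-type arrays. Of 8 slow fibre markers 7 were negative, with a median of -0.513 that was -0.69 on day 1 and -0.28 on day 2. Without 1 array this median was -0.66 to -0.31. Their sums ran from 1834 to 3690 in transgenic and from 1818 to 5804 in wild-type arrays, and overlapped. Limma called 0 of these 8, and 1 had an unadjusted p under 0.05. The synthase is also made by some neurons. None of 5 nerve markers was above the median probe set, and their sums of 200.6 to 240 in transgenic and 201.4 to 230.2 in wild-type arrays overlapped. Endothelial markers were positive in 7 of 7, with a median of 0.185. Their sums of 1439 to 1637 in transgenic and 1332 to 1438 in wild-type arrays did not overlap, by a very narrow margin. Taken singly, 0 of the 7 had genotypes that did not overlap, where 0.533% of all genes did not. Like the brighter Nos1 probe set, these markers had higher means in transgenic arrays. Whether they varied with Nos1 between arrays, or had a part in its difference, was not tested. Limma called 0 of these 7, and 5 had an unadjusted p under 0.05, against 4.91% of all genes. Adipocyte markers were negative in 4 of 4, with a median of -0.518 that was -0.129 on day 1 and -0.835 on day 2, and sums of 474.8 to 1011 against 803.6 to 1666. Limma called 0 of these 4, and 3 had an unadjusted p under 0.05. Smooth muscle, Schwann cell, macrophage and fibroblast markers had medians of -0.032, 0.084, 0.015 and -0.125 and sums that overlapped between genotypes, and in limma 0 of these markers passed or had an unadjusted p under 0.05.

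**Figure D5:**
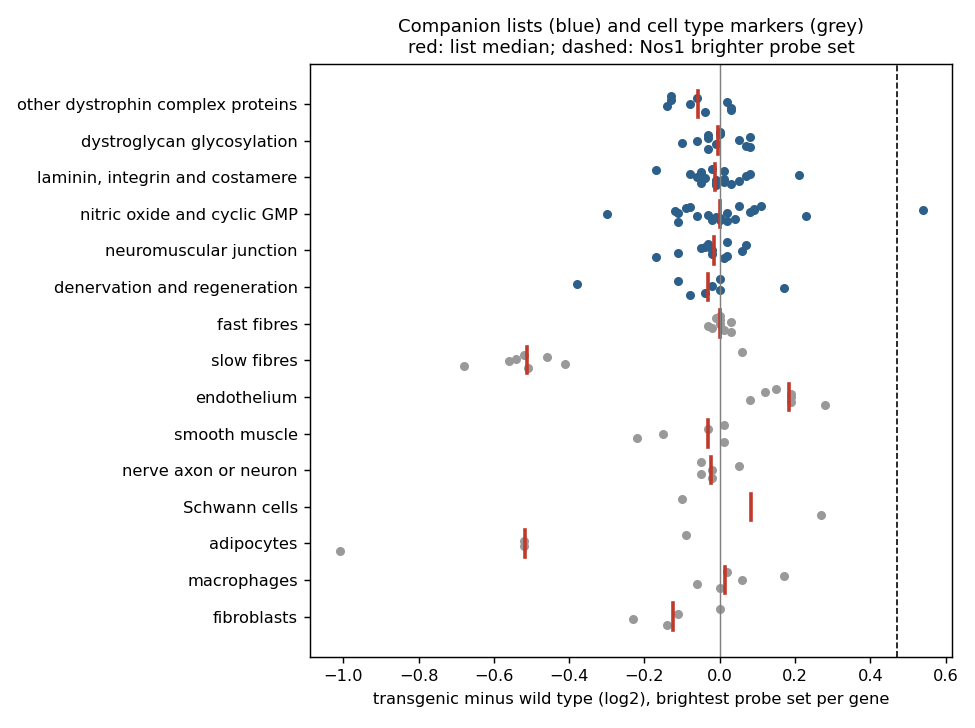
Transgenic minus wild-type difference in log2 units for each gene of the 6 surrounding lists (blue) and 9 cell type marker lists (grey), with the list median in red and the brighter Nos1 probe set as a dashed line at 0.47. Slc7a2 is the 1 gene plotted to the right of that line (0.54), and the list medians of the 6 surrounding lists lie between -0.057 and 0.002.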

How the data were processed

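The authors deposited linear intensities, with a column for each array. The method was RMA, per the submitters' processing notes, which give no version. RMA as generally defined corrects background, equalises arrays by quantiles and summarises probes. The array settings text, which the authors deposited beside them, served to find hybridization day, run, chip lot, animal number and tissue (unit: other). Runs were inferred from hybridization times that lay close together.

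Intensities were converted to log2 with no pseudocount. Of 22690 probe sets, 64 controls were set aside and 22626 tested, 20380 of them with 1 symbol, 691 with several and 1555 not listed. By Entrez identifier 20351 matched RefSeq of GRCm38.p6. Genes in lists were represented by their brightest probe set.

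The genotype test was limma's moderated one (version 3.58.1, R 4.3.3), two-sided, from lmFit and eBayes. P-values were adjusted by Benjamini-Hochberg across the 22626 probe sets, and 0.05 was the threshold. Errors of differences are limma standard errors, and the median standard error was 0.0689. The script was tested on simulated data. Each array is a different mouse.

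The members, lists and tests were chosen with earlier results of these data known. Named genes were all member probe sets, a fixed set from each list, any list gene past the threshold and the 5 genes most like Nos1. Genes named outside this rule are said in the text to have been chosen after their values were seen. Alternatives were another scale, other normalizations, a filter on dim probe sets, another variance model, day, run and lot, and leaving out each array.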

Additional observations from a re-analysis of the deposited data

Results flagged for a closer look

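In 42 groups of 6 arrays (21 member probe sets in each genotype), 4 single arrays lay far from the rest by Dixon's ratio, with a critical value of 0.625. Chance alone flags about 1 in 20 groups. All 4 values came from the 2 arrays of the smaller chip lot. In the brighter Nos1 probe set wild-type replicate 7 was at 9.57 with the next array at 9.24 (ratio 0.67), and transgenic replicate 1 was at 9.80 with the next at 9.72 (ratio 0.64). In the brightest Dmd probe set wild-type replicate 7 was at 8.18 with the next array at 8.57 (ratio 0.75). In the second Utrn probe set transgenic replicate 1 was at 6.29 with the next at 6.51 (ratio 0.68).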

How the results depend on the processing

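The brighter Nos1 probe set was positive in every alternative fit. It missed the threshold with quantile normalization repeated (0.47, limma adjusted p = 0.0869), with run as a block (0.48) and within day 1 (0.44) or day 2 (0.50) alone. In these 4 settings 0 member probe sets passed in limma, with 1 or 2 at an unadjusted p under 0.05. Over all 22626 tested probe sets, 1228 had such a p with quantile normalization repeated and 945 with run as a block. Within day 1 the count was 937, and within day 2 it was 882. The member counts cover Nos1, which was chosen on this contrast, so nothing is read from them. Without 1 array the value of the brighter Nos1 probe set was 0.44 to 0.54 and 0 to 1 member probe sets passed. Its difference between days was -0.0795 to 0.133 without 1 array. Over all probe sets 4 rose and 2 fell with run as a block, 1 rose and 0 fell on day 1 (937 at an unadjusted p under 0.05), 1 rose and 1 fell on day 2, and 11 fell with day as a block. Without 1 array 4 to 12 rose and 1 to 6 fell.

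Partner genes near 0 changed sign in some fits, none past the threshold, and the cause was not tested. On day 2 alone Dmd 1417307_at was at -0.0062, Dag1 1426778_at at -0.0317, Sgcb 1419667_at at -0.0362, Dtna 1427588_a_at at -0.0051, Dtna 1456069_at at -0.169 and Utrn 1452222_at at -0.0074. On day 1 alone Dmd 1448665_at was at 0.281, Dag1 1426779_x_at at 0.0339 and Sgcb 1419668_at at 0.0333. Without the smaller lot Dmd 1417307_at was at -0.021, Dag1 1426778_at at -0.0134 and Dtna 1456069_at at -0.0563. With run as a block Sgcb 1419667_at was at -0.0051. Leaving out 1 array gave -0.041 to 0.0629, -0.0012 to 0.0375 and -0.126 to 0.0549 for Dmd 1417307_at, 1430320_at and 1448665_at, and -0.0038 to 0.0528, -0.029 to 0.0373 and -0.063 to 0.0202 for Dag1 1423872_a_at, 1426778_at and 1426779_x_at. It gave -0.0444 to 0.0703 and -0.0938 to 0.0405 for Sgcb 1419667_at and 1419668_at, and -0.0216 to 0.0652, -0.0058 to 0.0641 and -0.089 to 0.153 for Dtna 1419223_a_at, 1426066_a_at and 1456069_at.

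Without the 2 arrays farthest from the median of Nos1, its r in wild type was 0.92 with the other Nos1 probe set, 0.70 with Dmd, 0.53 with Dag1 and 0.69 with Sgcb, and in transgenic arrays -0.46 with Sgca and -0.62 with Dtna. Spearman's rho with Dmd in wild type was 0.03. Of 496 recomputed values of 31 surrounding genes 2 moved by 1 SD or more, both of Cav3. No paired analysis was run, because the sample labels do not pair transgenic with wild-type mice. Signal over background could not be judged without probe-level data.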
